A study of Mus musculus with 6 samples.

Results

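A set of 9 genes that are commonly used as markers of immature oligodendrocytes, Bcas1, Enpp6, Itpr2, Fyn, Tmem2, Rras2, 9630013A20Rik, Gpr17 and Neu4, were followed through 6 single cells of the mouse brain. The members were taken by name, and every transcript assigned to one of these 9 of the 6357 detected genes was used, 106 of 36659 transcripts in all. The cells came from CD-1 mice, and the deposited labels give the tissue as brain and the stage as embryo for all 6, with no genetic change or treatment named. The study gives hippocampus and cortex as the source of the single cells and names no embryonic stage. How the label embryo goes with cells described as mature myelinating oligodendrocytes is not explained, so the age of the cells is uncertain. The groups were 2 cells of Oligo1, described in the study as immature oligodendrocytes, 2 of Oligo5, described as mature myelinating oligodendrocytes, and 2 that the labels call oligodendrocyte progenitors and the study calls vascular and leptomeningeal cells (VLMCs). The cDNA was stored material of an earlier single-cell experiment, and the study does not say how the stages were assigned. Marker genes may have had a part in it, so their levels here are no independent check of the stages. Amplified full-length cDNA of each cell was read on the PacBio platform, and molecules were counted by unique molecular identifiers (UMIs), random tags added before amplification, so that 1 transcript here is 1 UMI of a gene in a cell. No label names the animal of a cell, so each cell type counts as 1 sample, no test between cell types was made, and intervals cover counting error only.

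Oligodendrocytes arise from progenitors that leave the cell cycle, pass through a short stage in which they send out processes and contact axons, and then wrap these axons with myelin. The 9 genes are known from the short middle stage. They code for signalling proteins (the kinase Fyn, the small GTPase Rras2, the calcium release channel Itpr2 and the receptor Gpr17), for enzymes at the cell surface or in membranes (the choline phosphodiesterase Enpp6, the hyaluronidase Tmem2 and the sialidase Neu4), for the early myelin protein Bcas1, and for a long non-coding RNA (lncRNA), 9630013A20Rik.

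The 6 cells held between 2338 (VLMC-1) and 11483 (Oligo1-1) transcripts, so a count of 0 (taken as up to 3 counts) left room for at most 2.61 and 4.96 per 10000 transcripts in Oligo1-1 and Oligo1-2, 5.09 and 4.83 in the Oligo5 cells, and 12.8 and 6.398 in the VLMCs. The 10 marker genes of oligodendrocytes made up 9.58% to 14.8% of the transcripts of the 4 oligodendrocytes and had none in the VLMCs, while 10 marker genes of VLMCs had 103 and 245 transcripts in VLMC-1 and VLMC-2 and none in the oligodendrocytes. Of 10 progenitor markers the oligodendrocytes held 1 transcript in all (Cspg5, in Oligo5-2), and Pdgfra alone was found in the VLMCs. Of 10 neuronal markers, 6 had transcripts in Oligo5-2 (53 in all, led by Snap25 with 19), and all 10 were at 0 in the other 3 oligodendrocytes. The 10 endothelial markers had 11 transcripts in Oligo5-1 (6 of them Itm2a), 1 in each Oligo1 cell and 0 in Oligo5-2, and the 10 astrocyte markers had 19, 4, 3 and 0 in Oligo5-2, Oligo5-1, Oligo1-1 and Oligo1-2, and 5 and 29 in VLMC-1 and VLMC-2.

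The 9 genes were found almost wholly in the immature cells. Together they had 58 transcripts in Oligo1-1 and 40 in Oligo1-2, against 4 in Oligo5-1, 3 in Oligo5-2, 1 in VLMC-1 and 0 in VLMC-2. Per 10000 transcripts of the cell this was 50.5 (Poisson 95% interval, 38.4 to 65.3) in Oligo1-1 and 66.2 (47.3 to 90.1) in Oligo1-2, with 6.79 (1.85 to 17.4) in Oligo5-1 and 4.83 (0.996 to 14.1) in Oligo5-2. All 7 transcripts of the Oligo5 cells were of 1 gene, Enpp6, which was at 0 in the Oligo1 cells. Its counts thus went against the name of the set, although they were small. Of the 9 genes 8 had a transcript somewhere, and Neu4 had none.

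Of the signalling genes, Rras2 was the most abundant. Its product is a membrane-bound GTPase of the Ras family. Rras2 had 15 transcripts in Oligo1-1 and 21 in Oligo1-2 and 0 in the other 4 cells, which was 13.1 (7.31 to 21.5) and 34.8 (21.5 to 53.1) per 10000 transcripts. Both Oligo1 cells thus lay above the limit in either Oligo5 cell, and the intervals of the Oligo1 cells met only at their edges. Fyn, a kinase of the Src family that acts in the maturation of oligodendrocytes, had 5 transcripts in Oligo1-1 and 6 in Oligo1-2 and 0 elsewhere, or 4.35 (1.41 to 10.2) and 9.93 (3.64 to 21.6) per 10000. Itpr2, a receptor for inositol trisphosphate that releases calcium from the endoplasmic reticulum, had 6 and 5 transcripts in these cells, or 5.23 (1.92 to 11.4) and 8.27 (2.69 to 19.3) per 10000, and 1 transcript in VLMC-1. For Fyn and Itpr2 the intervals in both Oligo1 cells reached below the limits of 5.09 and 4.83 that a count of 0 leaves in the Oligo5 cells, so neither Oligo1 cell by itself was distinguishable from them at this depth. Gpr17, a G protein-coupled receptor of committed precursors, had 4 transcripts in Oligo1-1, or 3.48 (0.949 to 8.92) per 10000, and 0 in the other 5 cells, Oligo1-2 included.

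The lncRNA 9630013A20Rik had 27 transcripts in Oligo1-1 and 6 in Oligo1-2 and 0 in the other 4 cells. Per 10000 transcripts this was 23.5 (15.5 to 34.2) and 9.93 (3.64 to 21.6), intervals that overlap. Oligo1-1 lay above the limits of 5.09 and 4.83 in the Oligo5 cells. The interval in Oligo1-2 reached below them, so Oligo1-2 by itself was not distinguishable from the Oligo5 cells. In Oligo1-1 the lncRNA had more transcripts than any other of the 9 genes, and in Oligo1-2 it came level with Fyn, after Rras2.

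The enzymes were found at few transcripts. Enpp6, which releases phosphocholine from glycerophosphocholine, had 4 transcripts in Oligo5-1 and 3 in Oligo5-2, or 6.79 (1.85 to 17.4) and 4.83 (0.996 to 14.1) per 10000, and 0 in both Oligo1 cells, where the limits were 2.61 and 4.96. The intervals in both Oligo5 cells reached below these limits, so neither Oligo5 cell by itself was distinguishable from the Oligo1 cells at this depth. Oligo5-2 held the 53 transcripts of neuronal markers and 19 of astrocyte markers and Oligo5-1 the 11 of endothelial markers, and their part in the Enpp6 values was not tested. Tmem2, named Cemip2 in the annotation, which degrades hyaluronan at the cell surface, had 2 transcripts in Oligo1-2. Bcas1, a protein of the earliest myelinating cells, had 1 transcript in Oligo1-1. Neu4, a sialidase, had 0 in all 6 cells. The levels of these last genes were too low to order.

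**Figure D1:**
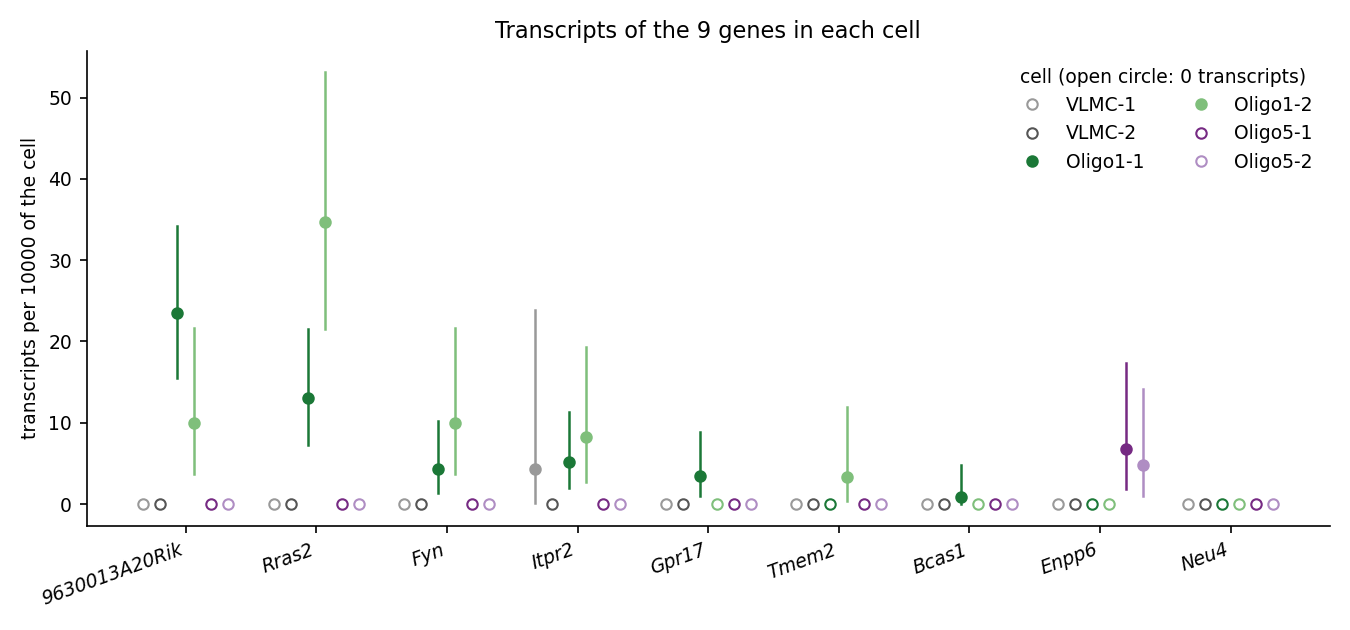
Transcripts per 10000 transcripts of the cell (y axis, linear) for the 9 genes (x axis) in each of the 6 cells, with Poisson 95% intervals as vertical lines and open circles where the count was 0. Rras2 reached 34.8 in Oligo1-2 and 9630013A20Rik 23.5 in Oligo1-1, while Enpp6 was found only in the Oligo5 cells.

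Oligo1 was set against Oligo5 by the ratio of pooled rates, over 17526 and 12106 transcripts. A group at 0 was replaced by 3 counts over the group, so the ratio is then a bound for the observed count of the other group. Counting error in that other count is not included, so the true ratio may lie nearer to 1. All ratios below with a group at 0 have this limit. Rras2 was at least 8.29-fold higher in Oligo1 (36 transcripts against 0), 9630013A20Rik at least 7.60-fold (33 against 0), and Fyn and Itpr2 each at least 2.53-fold (11 against 0). Enpp6 was at least 3.38-fold lower in Oligo1 (0 against 7). For Gpr17 (4 against 0) the bound lay below 1, and for Tmem2 (2 against 0), Bcas1 (1 against 0) and Neu4 (0 against 0) both groups were at or under the limit and no ratio is given.

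Among all 1032 genes with at least 6 transcripts in the 4 oligodendrocytes, 28.6% were at least 2-fold higher in Oligo1 and 23.1% at least 2-fold lower, with a median ratio of 1.38. Of the 9 genes, 4 were in the first class (Rras2, 9630013A20Rik, Fyn and Itpr2), 1 in the second (Enpp6), and 4 had too few transcripts to enter. Both Oligo1 cells lay above both Oligo5 cells in 27.6% of the 1032 genes and in the same 4 members, and below them in 15.8% and in Enpp6. Each of these 5 members reached 6 transcripts through 1 cell type alone, with 0 in the other, so the number of members called is a description only. Of the 1032 genes, 8.62% had 0 in both Oligo5 cells and 5.62% had 0 in both Oligo1 cells. Without Oligo1-1 the bound for Enpp6 fell to 1.16-fold and without Oligo5-1 no ratio could be given for it. Without Oligo5-1 or without Oligo5-2 the bounds for Fyn and Itpr2 fell to 1.30 and 1.23, and without Oligo1-2 that for Fyn fell to 1.76. Leaving out a cell moved the bound for Rras2 between 4.04 (without Oligo5-2) and 14.02 (without Oligo1-1), and for 9630013A20Rik between 3.70 (without Oligo5-2) and 9.49 (without Oligo1-2).

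The reads came from 2 PacBio runs, a short run and a long run with longer molecules. Each run was taken by the transcripts with at least 1 read in it, so a transcript read in both runs counts in both. For the short run the bounds were 5.53 for Rras2 (24 transcripts), 4.37 for 9630013A20Rik (19), 2.30 for Fyn (10) and 1.61 for Itpr2 (7). For the long run they were 3.85 for Rras2 (16), 4.09 for 9630013A20Rik (17) and 1.44 for Itpr2 (6). Fyn had too few transcripts in the long run for a ratio. All of these stood against 0 transcripts in the Oligo5 cells.

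**Figure D2:**
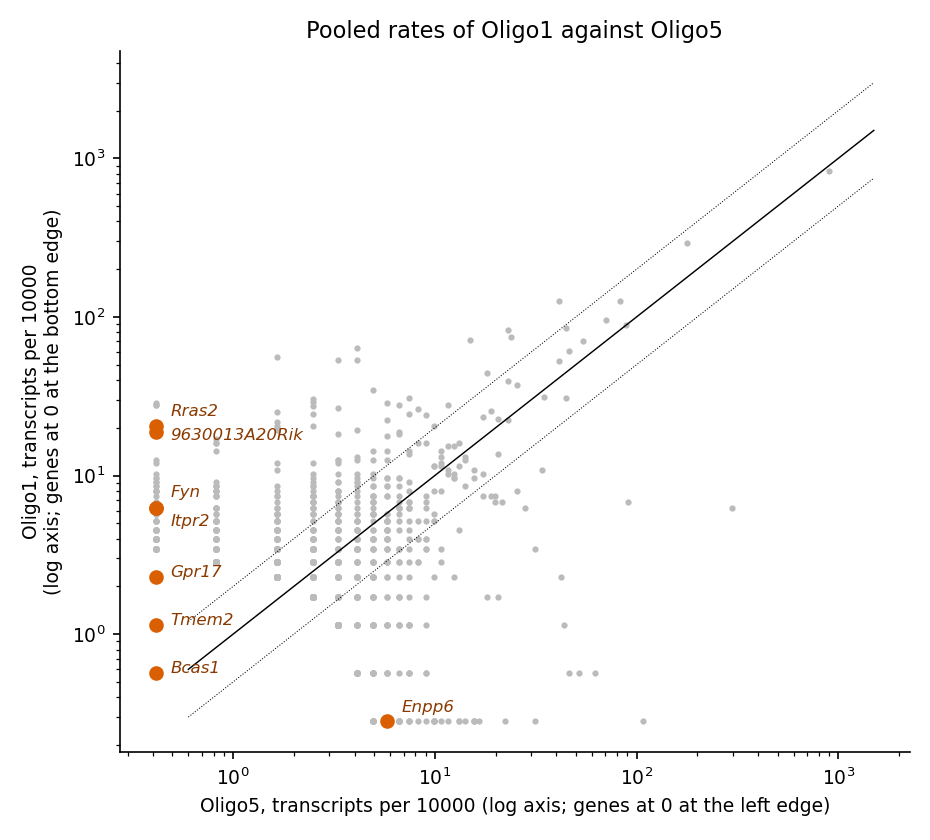
Pooled transcripts per 10000 in Oligo5 (x axis) and in Oligo1 (y axis), both log axes, for the 1032 genes tested (grey) and for 8 of the 9 genes (orange), with genes at 0 in a group drawn at the left or bottom edge, a line of equal rates and dotted lines at 2-fold. The other 7 of these members stand at the left edge, with 0 in Oligo5, and Enpp6 stands at the bottom edge, with 0 in Oligo1.

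Of the 9 genes, 9630013A20Rik had the most sets of junctions (22, against 9 in Rras2) and the most end sites (14, against 3 in Rras2). The gene (ENSMUSG00000115529.1) lies at chr14:84458639-84476424 (GRCm38, the build called mm10) on the minus strand, is classed as antisense RNA, and has 5 annotated transcripts over 7 groups of overlapping exons. Of its 33 transcripts, 27 covered the first annotated exon, 26 of them in Oligo1-1 and 1 in Oligo1-2. With ends within 5 bp taken as 1 site and junctions within 1 bp as 1 junction, the 33 transcripts had 11 start sites, 14 end sites, 22 sets of junctions and 29 combinations of start, junctions and end. No combination was seen in more than 2 transcripts. Among the 25 transcripts that ran from the first exon group into the last or past it, 17 sets of junctions were found, of which the largest held 5 transcripts and 14 were seen in 1 transcript each. Only 2 of the 5 annotated chains of junctions were seen whole, in 6 transcripts. Of the 27 transcripts in Oligo1-1, 11 rested on a single read, as did all 6 in Oligo1-2. Merging transcripts of the gene with similar UMIs (1 base changed or shifted) took the 27 of Oligo1-1 to 20, or to 23 where both ends also had to lie within 5 bp, so some of the 27 may be copies of 1 molecule.

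**Figure D3:**
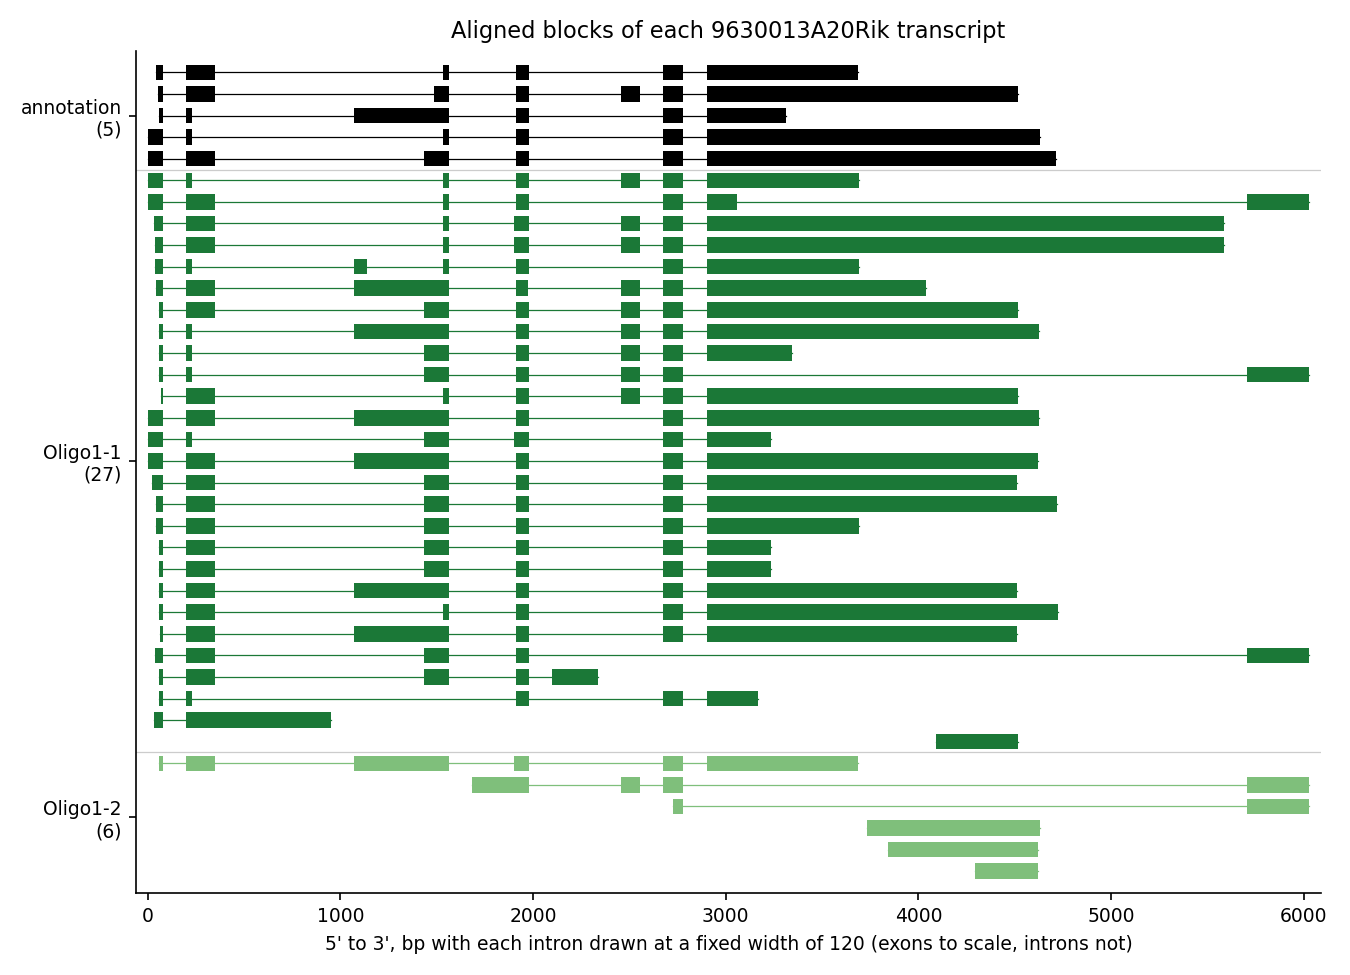
Each row is 1 transcript of 9630013A20Rik drawn 5′ to 3′ (x axis, bp, exons to scale and each intron at a fixed width), with the 5 annotated transcripts on top, 27 transcripts of Oligo1-1 in dark green and 6 of Oligo1-2 in light green. The third exon has 3 forms, the fifth is present in 10 transcripts, the last exon ends at many places, and 5 transcripts end in a last exon beyond the annotated gene.

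The start of the lncRNA was spread over 70 bp of its first exon, in 5 sites. The most used was chr14:84476363-84476366 with 12 transcripts, followed by chr14:84476382-84476390 with 8 and chr14:84476421-84476424 with 5, and 2 other sites had 1 transcript each. Of the 27 starts in the first exon, 25 lay at sites within 5 bp of an annotated start. The window below, chr14:84476361-84476390 on the minus strand, is shown because 20 transcripts began in it, with each first base observed in capitals, 9 positions in all. Sequences here are from GENCODE transcripts of GRCm38 and are written 5′ to 3′.
9630013A20Rik start window: AtCAgacACgcggagcgtgtaaccATGGaa

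Splice sites differed at 3 of its exons. Exon 2, which begins at position 84476039, was spliced out at 84475889 in 19 of 26 transcripts (73.1%, Wilson 95% interval 53.9% to 86.3%) and at 84476009, 120 bp earlier, in 7 (26.9%, 13.7% to 46.1%). These forms are 151 and 31 bp long. Exon 3 was carried by 25 transcripts with 26 uses of a start site, since in 1 transcript the longest form was itself split by an intron of 397 bp and counts under the long and the short start. It began at 84472340 in 11 of the 26 uses (42.3%, 25.5% to 61.1%), at 84472704 in 8 (30.8%, 16.5% to 49.99%) and at 84472242 in 7 (26.9%, 13.7% to 46.1%), so that it was 128, 492 or 30 bp long apart from the split form. The 3 intervals overlap, and no start of exon 3 stood out from the others. Exon 4 began at 84470731 in 22 of 26 (84.6%, 66.5% to 93.9%) and 12 bp earlier, at 84470743, in 4 (15.4%, 6.15% to 33.5%), a site that is not annotated and was seen in both Oligo1 cells (3 and 1). The fifth exon, 98 bp at chr14:84465898-84465995, was present in 10 and spliced past in 16 of 26 transcripts (38.5% with it, 22.4% to 57.5%).

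The splice sites that gave these choices are shown as windows of 30 bases on the minus strand, with the AG just before an exon or the GT just after it in capitals. Those at 84472340 and 84472242 are the middle and the short start of exon 3. The window chr14:84472281-84472310 holds an annotated start of exon 3 that 0 transcripts used here, and 84476009 is the early end of exon 2.
exon 3 start 84472340: taaattatttcaaaatatAGaaataacttc
exon 3 start 84472242: tatctcttttccacattcAGatggacactg
exon 3 start, annotated and not used: acaatgtattctttcctaAGagggcaccca
exon 2 end 84476009: tgagccacatgcaagGTtagctgaacagca

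The choices were seen in many combinations. Among the 9 transcripts with the fifth exon that covered the first exon and reached the sixth or beyond, exon 3 was long in 2, middle in 3 and short in 4, and the short exon 2 was used in 4. Among the 16 without it the numbers were 6, 7 and 3, and the short exon 2 was used in 3, where the split transcript counts under 2 starts and 1 transcript skipped exon 3. The numbers are too small to set these shares apart. Of the 19 different junctions, 10 were annotated, and these made up 122 of the 143 junctions counted (85.3%, 78.6% to 90.2%). The junction from exon 2 to the long exon 3, 84475889 to 84472704, was not annotated as such although both its sites were, and was found in 6 transcripts (5 and 1 by cell). Counting splice sites that were joined to 2 or more partners, 9630013A20Rik had 11 such sites over 29 spliced transcripts. In the 58 genes with 20 to 40 spliced transcripts in the 4 oligodendrocytes the median was 2, and after the lncRNA the next gene was Sema4d with 8 over 26 spliced transcripts.

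The 3′ ends were spread further than the starts. In or beside the last exon there were 11 end sites over 2422 bp, with 26 transcripts. The most used were chr14:84458836-84458842 with 6 transcripts, chr14:84458731-84458733 with 5 and chr14:84459663-84459670 with 4, and of all 14 end sites 4 lay within 5 bp of an annotated end. A group of 5 transcripts, 3 in Oligo1-1 and 2 in Oligo1-2, instead ended in an unannotated last exon at chr14:84451473-84451793, which begins 6846 bp beyond the annotated end of the gene. It was joined to exon 6 in 3 transcripts, to exon 4 in 1 and to a shortened seventh exon in 1. The remaining 2 transcripts, both of Oligo1-1, ended before the last exon, at 84467156 in an exon of its own and at 84475286 in the intron after exon 2.

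Of the lncRNA's end sites, 5 of 8 with 40 annotated bases before them held the poly-A signal AATAAA on the transcript strand in these 40 bases (17 of 22 transcripts), against 25.8% of 141704 annotated transcripts of all genes with a window of the same length. All annotated transcripts were taken, with no filter on how complete their 3′ ends are. The signal lay 18 to 26 bases before the end. The ends at 84458725 and 84458731 share the same AATAAA, so the 5 sites do not hold 5 separate signals. The last 30 bases before 4 of the 5 ends with a signal are shown with the signal in capitals.
end at 84458731: gcttgatgctAATAAAaactgcaatccttg
end at 84458836: ggtatttaAATAAAtgacaatcaacaccat
end at 84459663: aatgtaAATAAAtcataaacatttaaaaat
end at 84460009: agaaaagaaatgAATAAAacatgtacaact

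The 3 sites with 40 annotated bases and without a signal (AATAAA or ATTAAA), at 84459318, 84460118 to 84460121 and 84460188, were followed by 9, 10 and 9 A in the next 20 annotated bases. The 5 with a signal were followed by 4 or 5 A. Whether some transcripts were primed within such a stretch was not tested.

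The lncRNA lies inside Pcdh17 (chr14:84443563-84539002), a protocadherin gene on the opposite strand. Pcdh17 had 17 transcripts in Oligo1-1, 4 in Oligo1-2 and 0 in the other 4 cells. None of these 21 transcripts overlapped an aligned block of the lncRNA, and 19 of them were a single block.

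Genes with transcripts in both Oligo1 cells and 0 in the other 4 cells numbered 316. The 5 with the most Oligo1 transcripts besides the lncRNA were Cntn1 (20 and 30 in the 2 cells), Ctps (45 and 4), Luzp2 (35 and 14), Rras2 (15 and 21) and Pcdh17 (17 and 4). Ctps, Luzp2 and Pcdh17, like the lncRNA, had more transcripts in Oligo1-1, the cell with more transcripts in all, while Cntn1 and Rras2 had more in Oligo1-2.

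Rras2 (ENSMUSG00000055723.6, chr7:114046782-114117781, minus strand, 6 exons) had 9 sets of junctions, 3 end sites and 29 start sites, most of them inside the gene. All 36 transcripts reached the last exon, and 17 held nothing else. The inner exons 2 to 5 were carried by every transcript that spanned them, 7, 12, 14 and 17 transcripts. Both main end sites were used in both cells. The downstream end at chr7:114046778-114046788 had 13 of 15 transcripts in Oligo1-1 (86.7%, 62.1% to 96.3%) and 16 of 21 in Oligo1-2 (76.2%, 54.9% to 89.4%), and the upstream end at chr7:114047570-114047572, 787 bp short of the annotated end, had 2 of 15 and 4 of 21. The intervals of the cells overlapped. Merging similar UMIs took the 21 transcripts of Oligo1-2 to 15, or to 18 where the ends also had to be alike. It took the 15 of Oligo1-1 to 14 either way. The upstream end had the signal ATTAAA 19 bases before it and 2 A in the next 20 bases, and 1 more transcript ended at 114047680.

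The 5′ part of Rras2 held 2 unannotated forms, both in Oligo1-1. Exon 1 (chr7:114117396-114117781) was reached by 6 transcripts. In the 5 of Oligo1-1, which began within 40 bp of the annotated start, the alignment left out a stretch of exon 1, chr7:114117494-114117586 (93 bp) in 4 and chr7:114117497-114117587 (91 bp) in 1. This stretch holds the annotated start codon, chr7:114117501-114117503. The first and last bases of the gap were CC and GG in the 4 and AC and CG in the 1, not GT and AG. Whether it is a splice, a difference between CD-1 and the reference, or lost in amplification or alignment was not tested. Since merging similar UMIs took the 15 Rras2 transcripts of Oligo1-1 to 14, copies of 1 molecule may be among the 5. The transcript of Oligo1-2 began at 114117434, downstream of the gap. A further transcript of Oligo1-1, of 3 reads, joined exon 2 to a pair of unannotated upstream exons, chr7:114151409-114151509 and chr7:114162089-114162167, which lie 33.6 and 44.3 kb before the annotated start, and left out exon 1.

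**Figure D4:**
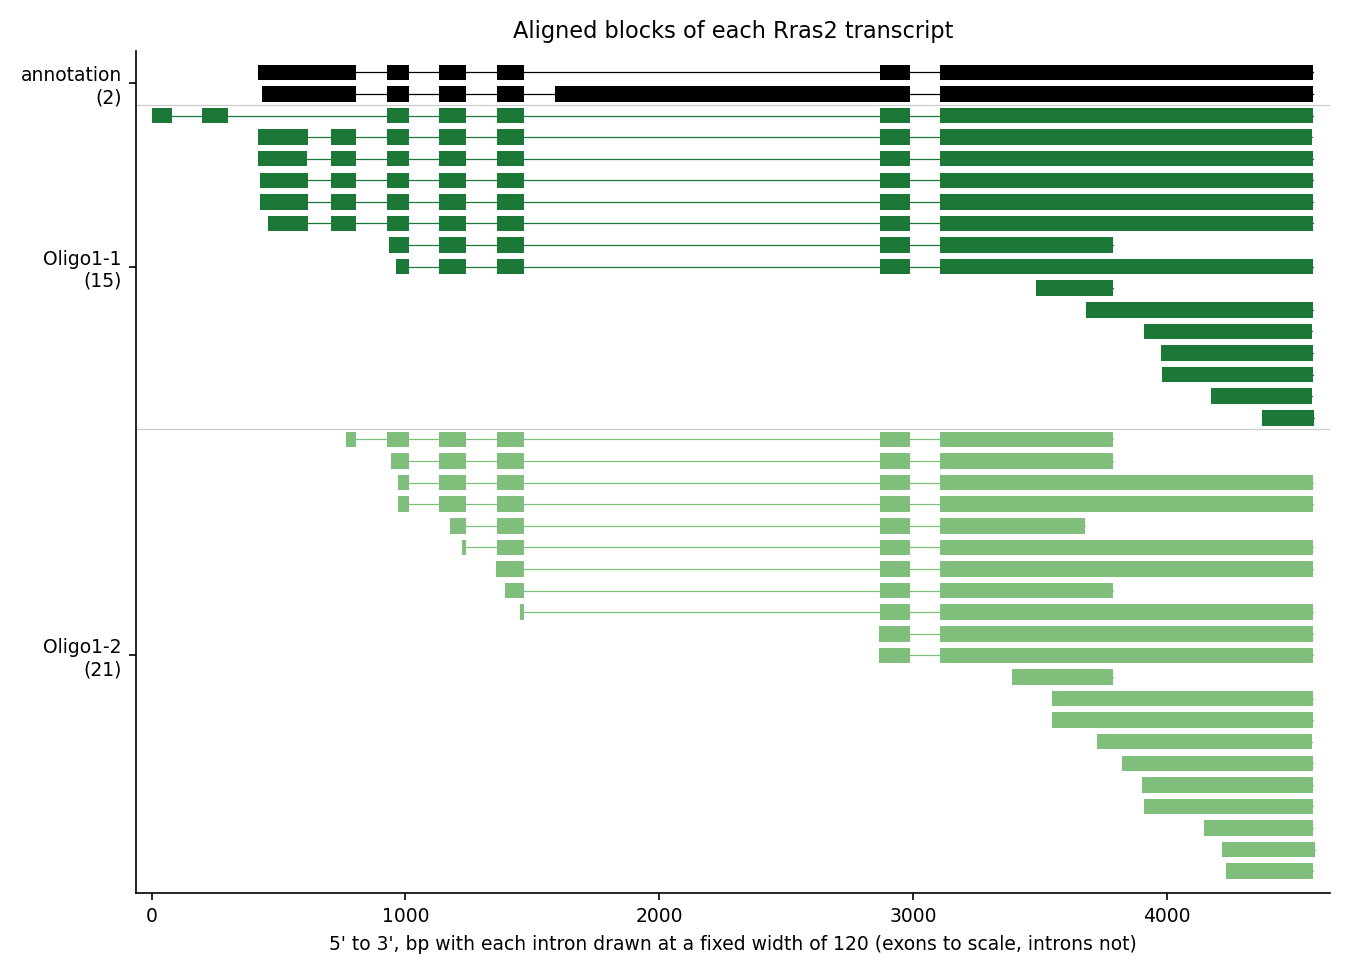
Each row is 1 transcript of Rras2 drawn 5′ to 3′ (x axis, bp, exons to scale and each intron at a fixed width), with the 2 annotated transcripts on top, 15 transcripts of Oligo1-1 in dark green and 21 of Oligo1-2 in light green. Most transcripts of Oligo1-2 begin inside the gene, 5 of Oligo1-1 show a gap in the first exon, and 1 has a pair of upstream exons.

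Fyn (ENSMUSG00000019843.14, chr10:39368855-39565381, plus strand) has a pair of coding exons known as 7A and 7B that replace each other at the end of the second Src homology domain and the start of the kinase domain, the first typical of brain and the second of blood cells. Exon 7A is 165 bp at chr10:39529437-39529601 and exon 7B is 156 bp at chr10:39529919-39530074, each the ninth exon of its annotated transcript. Only 1 of the 11 Fyn transcripts spanned this place, in Oligo1-1, and it carried 7A (1 of 1, 20.7% to 100%). It was the 1 transcript that covered the first exon, held all 14 exons in 2147 aligned bp, and rested on a single read. The other 10 began downstream of exon 7 and say nothing about it, and with 0 transcripts in the Oligo5 cells the choice could not be compared between the stages. The first 30 bases of the exons are shown, with the 13 bases that differ position by position in capitals and the other 17 in lower case.
Fyn exon 7A: agaGagcCgCAggtCtCtgCtGCCGcCtaG
Fyn exon 7B: agaAagcTgATggtTtGtgTtTTAAcTtaA

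At its 3′ end Fyn had 2 main sites in both cells. The upstream end at chr10:39564342-39564343 had 2 of 5 transcripts in Oligo1-1 and 3 of 6 in Oligo1-2, and the downstream end at chr10:39565371-39565372 had 1 of 5 and 3 of 6. The upstream end was followed by 14 A in 20 bases with no poly-A signal in the 40 bases before it, although an annotated end lies 12 bp further on. The downstream end had ATTAAA 26 bases before it. The transcript that carried 7A ended at the upstream site.

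Itpr2 (ENSMUSG00000030287.15, chr6:146108299-146502223, minus strand, 57 exons) was seen in parts, since no molecule exceeded 2839 bp. One transcript of Oligo1-1, with 6 reads, covered exons 1 to 20 and ended at 146373118, within 5 bp of an annotated end. Another 2 of Oligo1-1 covered exons 42 to 57, with like ends and similar UMIs, so they may be 1 molecule. In Oligo1-2, 3 covered exons 51 to 57, 55 to 57 and 56 to 57. These 5 ended at chr6:146111479-146111481, where the annotated transcript of 57 exons ends, followed by 18 A in 20 bases. The other 4 (3 and 1 by cell) were single blocks in a longer annotated form of the last exon, downstream of this place, and ended at chr6:146108300-146108305, the end of the gene, with AATAAA 32 bases before it. A last transcript of Oligo1-2 began in exon 35 and ended inside exon 37, at 146291619, followed by 11 A in 20 bases. All 60 junctions counted in Itpr2 were annotated. The transcript of VLMC-1, with 5 reads, was a single block of 386 bp in the last exon. Its end had no poly-A signal and was followed by 15 A in 20 bases.

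Enpp6 (ENSMUSG00000038173.15, chr8:46986887-47096762, plus strand, 8 exons) was the gene of the Oligo5 cells. Of its 4 transcripts in Oligo5-1, 1 held all 8 exons from 46986925 to 47093255, 1 held exons 2 to 7 and ended at 47082788, 6 bp short of an annotated end, and 2 lay in the last exon. The last 2 agreed within 1 bp at both ends and had similar UMIs, so they may be 1 molecule. Of the 3 in Oligo5-2, each of 1 read, 1 held exons 2 to 8 and ended at 47093254, at the same place as in Oligo5-1. Another held all 8 exons and an extra exon of 173 bp between exons 7 and 8, at chr8:47082864-47083036, and ended at 47094835, followed by 17 A in 20 bases. The third held exons 1 to 3 and ended in the intron after them. The extra exon begins at an annotated splice site, and the junction after it was not annotated. Its end is shown with the following GT in capitals.
Enpp6 extra exon end 47083036: taggatgtattcaagGTcaggctcagaagt

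The 4 transcripts of Gpr17 (ENSMUSG00000052229.5, chr18:31942997-31949636, minus strand) all ended at 1 site 18 bp short of the annotated end, with AATAAA 18 bases before it, and began at 4 different places in the last exon. None reached the first exon. Tmem2 (ENSMUSG00000024754.13, chr19:21778342-21858360, plus strand, 25 exons) had 1 transcript of exons 11 to 25, with 14 junctions, all annotated, and 1 within the last exon. They ended 1946 and 1344 bp short of the annotated end, followed by 13 and 16 A in 20 bases. The transcript of Bcas1 (ENSMUSG00000013523.13, chr2:170346991-170427845, minus strand) was a block of 475 bp in the last exon that ended at an annotated end. Neu4 (ENSMUSG00000034000.15) lies at chr1:94020451-94028334.

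How much of the molecules was seen differed between the Oligo1 cells. Transcripts of the 9 genes covered an annotated first exon in 33 of 58 cases in Oligo1-1 (56.9%, 44.1% to 68.8%) and in 2 of 40 in Oligo1-2 (5.00%, 1.38% to 16.5%), and their median aligned length was 1253 and 810 bp. The mix of genes differed too. Of the 33, 26 were of 9630013A20Rik, which had 27 of the 58 transcripts in Oligo1-1 and 6 of the 40 in Oligo1-2. For Rras2 the numbers were 5 of 15 and 1 of 21. Over all genes the median aligned length was 1109 and 651 bp, and 48.1% and 24.5% of transcripts had a long-run read. Start sites and full chains of exons therefore come nearly all from Oligo1-1. A difference in them between the Oligo1 cells cannot be told apart from these differences in length and gene mix. Over the 9 genes, 309 of 339 junctions counted were annotated (91.2%, 87.6% to 93.7%). Of 101 different junctions 15 were not, 9 of them in the lncRNA, 4 in Rras2 and 1 each in Enpp6 and Gpr17. Every gap between aligned blocks counts as a junction here, so those of Rras2 include the gaps of 93 and 91 bp in exon 1. That of Gpr17 is a gap of 101 bp in the last exon, with AA and AG as its first and last bases. Whether these gaps are splices was not tested.

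Other genes of these stages were described by lists that are taken from general knowledge of the lineage. The lists were chosen with earlier results of these data known, so their counts are a description only. Of 19 other genes of newly formed oligodendrocytes, 10 had at least 6 transcripts, of which 8 were at least 2-fold higher in Oligo1 and 0 lower. Tcf7l2, Tmem163, Prom1 and 1810041L15Rik reached 6 transcripts through Oligo1 alone, with 0 in Oligo5, so they could not come out lower. Over all 1032 genes 28.6% were higher and 23.1% lower. The median ratio was 3.45 in the list against 1.38 over all 1032 genes. Medians of ratios here include the bounds of genes at 0 in a group. Such genes were held to a stricter rule. Tcf7l2, with 3 and 3 transcripts against 0, had a bound of 1.38 and was not counted as higher. Prickle1, with 4 and 1 against 0 and 1, was counted at 3.45. Among the 8, the intervals of Ddr1 (0.551 to 26.7), Arap2 (0.774 to 7.71), Prickle1 and Samd4b (both 0.386 to 163) took in equal rates. The 19 genes made up 1.10% of the transcripts of Oligo1-1 (0.922% to 1.30%) and 1.70% of those of Oligo1-2 (1.41% to 2.06%). Their share was 0.221% in Oligo5-1 (0.129% to 0.377%) and 0.145% in Oligo5-2 (0.0763% to 0.275%). Nfasc, which codes for the axon contact protein neurofascin, had 50 and 44 transcripts in the Oligo1 cells and 3 and 1 in the Oligo5 cells (16.2-fold, 6.13 to 60.8). Sirt2, a deacetylase, had 20 and 23 against 2 and 1 (9.90-fold, 3.17 to 49.9).

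Of 21 genes of mature oligodendrocytes, 17 had at least 6 transcripts, with 11 at least 2-fold lower in Oligo1 and 3 higher. The median ratio was 0.184. Apod, Klk6, Anln, Aspa and Ndrg1 reached 6 transcripts through Oligo5 alone, with 0 in Oligo1, and Opalin through Oligo1 alone, with 0 in Oligo5. These genes could be called in 1 direction only. Over all 1032 genes 23.1% were lower and 28.6% higher. Their share was 2.27% in Oligo1-1 and 1.29% in Oligo1-2, against 6.77% in Oligo5-1 and 8.48% in Oligo5-2. Trf, the iron carrier transferrin, had 8 and 3 transcripts in the Oligo1 cells and 119 and 239 in the Oligo5 cells (0.0212 of the rate, 0.0105 to 0.0384). Mobp, a myelin protein, went the other way, with 122 and 24 against 15 and 13 (3.60-fold, 2.39 to 5.61). Opalin and Mag were the other 2 genes of this list that were higher in Oligo1. The list was not particular to oligodendrocytes, since the VLMCs had 3.76% and 6.33%, mostly of Apod (86 and 261 transcripts).

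**Figure D5:**
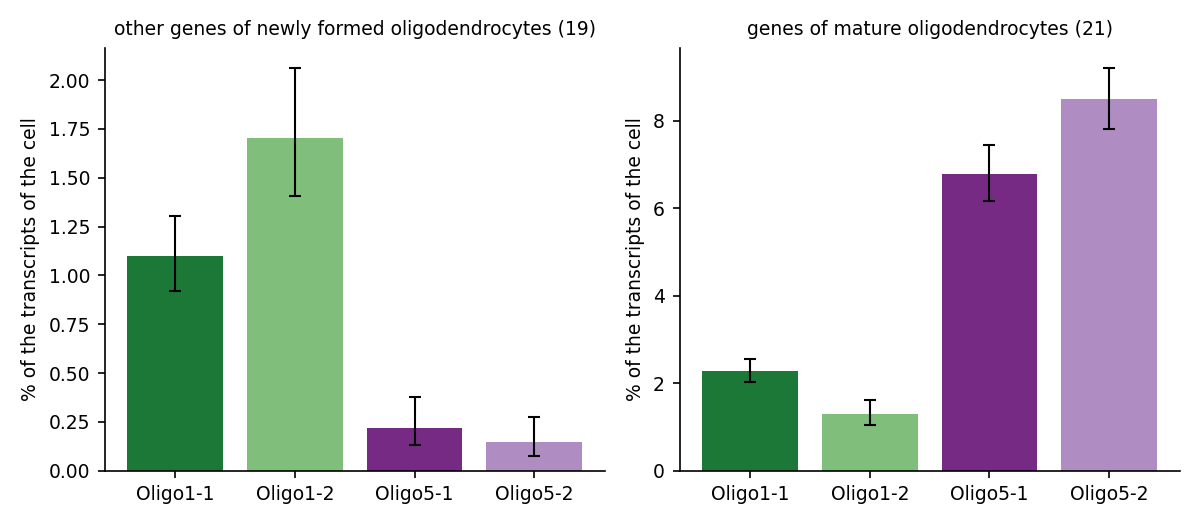
Share of the transcripts of each oligodendrocyte (y axes, percent, with different scales) from 19 other genes of newly formed oligodendrocytes (left) and 21 genes of mature oligodendrocytes (right), with Wilson 95% intervals. The left list is at 1.10% and 1.70% in the Oligo1 cells and at 0.221% and 0.145% in the Oligo5 cells, and the right list at 6.77% and 8.48% in the Oligo5 cells.

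Of 14 genes around the kinase Fyn, 8 had a transcript in the 4 oligodendrocytes, and 4 had at least 6 transcripts. Cntn1, a surface protein that Fyn associates with, had 20 and 30 transcripts in the Oligo1 cells and 0 in the others (at least 11.5-fold), and Itgb1, an integrin subunit upstream of Fyn, had 10 and 2 against 3 and 3 (1.38-fold, 0.480 to 4.49). Mapt, the Fyn-binding protein tau, was at 0 in Oligo1 and had 3 and 5 transcripts in Oligo5, at least 3.86-fold lower in Oligo1. Tau is abundant in neurons, 5 of the 8 transcripts lay in Oligo5-2 with its 53 transcripts of neuronal markers, and their part was not tested. The other 3 lay in Oligo5-1, where the neuronal markers were at 0. The kinase Csk that holds Fyn inactive and the relative Src were at 0 in all 6 cells, and the relatives Yes1 and Lyn had 1 transcript in Oligo5-1 and 2 in VLMC-2.

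Of 21 relatives of the 9 genes in their families, 14 had no transcript in the 4 oligodendrocytes. Enpp2, the lysophospholipase D of the Enpp6 family, had 82 and 41 transcripts in the Oligo1 cells and 30 and 36 in the Oligo5 cells (1.29-fold, 0.947 to 1.76), so its interval took in equal rates. Nras, of the Ras family like Rras2, had 10 and 6 against 3 and 0 (3.68-fold, 1.05 to 19.7). Itpr1, the relative of Itpr2, had 2 transcripts in each VLMC and 0 in the oligodendrocytes, and Itpr3 had 1 in VLMC-2. Of the other sialidases, Neu1 had 1 transcript in Oligo5-2, and Neu2 and Neu3 had 0, as Neu4 did.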

How the data were processed

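Reads that carried the barcode of a cell on either side of the insert, and a run of A, were aligned to mm10 by the authors, who closed gaps under 40 bp, took gene names from RefSeq and combined reads that shared a UMI. The deposited values are raw counts, the number of reads behind each transcript, with its aligned blocks, and no normalization. The processing notes of the labels name GSNAP. Here, transcripts were counted per gene and cell, and divided by all transcripts of the cell. Structures were set beside GENCODE M21. Shares have Wilson and counts exact Poisson 95% intervals, and ratios of rates with transcripts in both groups the conditional exact binomial interval. The tools were Python 3.11.15, numpy 2.4.6, pandas 2.3.3 and, for intervals, scipy 1.17.1, with figures by matplotlib 3.10.9, and the steps were tested on simulated data. All 9 members are named, with the 2 genes of each list that had the most transcripts in the oligodendrocytes. The other genes named were chosen after their values were seen, except the 5 with the pattern of the lncRNA. The members and lists were chosen with earlier results of these data known. Protein sequences were not used here.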

Additional observations from a re-analysis of the deposited data

How the results depend on the processing

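The 9 genes were counted in 4 oligodendrocytes, and most of them had under 12 transcripts, so depth limits every ratio given. The number of members at least 2-fold higher in Oligo1, 4, was 2 with only transcripts of 2 or more reads and 2 with transcripts read in the long run. It was also 2 with a minimum of 12 transcripts and 2 at 3-fold. In each case these were Rras2 and 9630013A20Rik. When a cell was left out the number was 2 to 3. The number lower in Oligo1, 1, was 0 under 4 choices and 0 to 1 when a cell was left out. The 4 were transcripts of 2 or more reads, transcripts read in the short run, transcripts read in the long run and the minimum of 12. Members with both Oligo1 cells above both Oligo5 cells, 4, were 1 with transcripts of 2 or more reads, 2 with the long run and 2 with the minimum of 12. The lowest bound was 0.993 for Fyn, with transcripts of 2 or more reads. Each member with a ratio had 0 transcripts in a group, so its direction could not turn. Fewer transcripts follow from the construction of the alternatives on reads, runs and cells, and the minimum of 12 leaves fewer genes. Exon 7A was seen in 0 Fyn transcripts with only transcripts of 2 or more reads, and in 0 to 1 when a cell was left out. For 9630013A20Rik, every end position taken as distinct gave 20 start and 26 end sites, ends within 20 bp gave 7 start sites, and transcripts of 2 or more reads gave 5 start sites, 9 end sites, 12 sets of junctions and 15 isoforms, against 11, 14, 22 and 29. Only transcripts that cover the first exon gave 5 start sites. Leaving out a cell gave 6 start sites either way, 4 to 13 end sites, 4 to 19 sets of junctions and 6 to 23 isoforms, the low values without Oligo1-1. Merging similar UMIs left 4 members higher and 1 lower and gave 26 isoforms of the lncRNA, and 29 where the ends also had to lie within 5 bp, an alternative chosen after the data were seen. No paired analysis was possible because each value comes from a count with no test and cells share only a number.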
